A study of Mus musculus with 8 samples.

Results

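Slpi, Acod1, Lyg1 and 5 beta-defensin genes (Defb1, Defb3, Defb4, Defb6 and Defb14) encode antimicrobial effectors and were followed in mouse forepaw skin after an intradermal injection of PACAP, a neuropeptide that acts through the receptor PAC1R. The 8 genes were taken by name from the array annotation, and each was measured by 1 probe, so that they made up 8 of 39429 probes and 8 of 29608 gene names. They were chosen by their PACAP to vehicle ratios, which were known from these arrays. The ratios are therefore given as a description with no test, and tests were run only on vehicle-treated skin.

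Male mice aged 9 to 10 weeks, of the strain C57BL/6J by the sample labels, were either wild type (WT mice) or Adcyap1r1 -/- and so without PAC1R (PAC1R KO mice). Under anaesthesia, the footpad of the forepaw received 5 µL of saline with 0.1% bovine serum albumin, either with PACAP at 1e-07 mol/L or without it (vehicle), and skin was taken 30 or 60 min later. The anaesthesia, the needle and the vehicle were shared by all groups, and the sources used here do not call the WT mice littermates of the PAC1R KO mice. The 8 RNA samples were hybridised as 4 pairs of PACAP with vehicle, each pair on 2 Agilent arrays with swapped dyes. The 2 arrays of a pair were counted as 1 replicate, and no comparison had a replicate between animals. The study gives the number of mice injected per genotype and says that the skin samples were ground individually. The sources used here do not name the mice behind each RNA sample or say whether RNA was pooled.

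The arrays of WT mice lay on 1 slide and those of PAC1R KO mice on another, and the effect of genotype cannot be told apart from that of the slide. Adcyap1r1, the deleted gene, was lower in PAC1R KO mice in 4 of 4 matched samples, by 0.11 to 0.36 on the log2 scale. Whether its probe lies within the deleted part is not given in the sources used here, so the probe was not taken as a check of the genotype. The study examined the receptor protein by immunostaining in skin of both genotypes, which was not analysed here. All 16 keratinocyte genes and all 16 eccrine gland genes were above background on at least 1 array in every sample. So were all 16 skeletal muscle genes and 11 to 12 of 12 hepatocyte genes, so this measure does not check the tissue label. All 18 genes of the hair shaft and inner root sheath were above background as well. Their mean level in the vehicle sample of PAC1R KO mice at 60 min was 10.42 on the log2 scale, against 8.20 to 8.71 in the other 3 vehicle samples, and that sample is the denominator of every ratio of PAC1R KO mice at 60 min. The vehicle sample of WT mice at 60 min stood apart for 12 hepatocyte genes, with a mean level of 8.39 against 7.71 to 7.87 in the other 3. Of these genes 6 were down-regulated with PACAP in WT mice at 60 min by the processed signals, and 2 of the 6 stayed past 0.5-fold when the ratios came from normexp, a background correction that models dim spots, and loess, a normalization of the dyes within an array. Here normexp added an offset of 50 to both channels, and an added constant draws the ratios of dim spots toward 1. The list median was 0.477, and the summed intensity in that vehicle sample was 9836, against 7952 to 10532 in the others. It is the denominator of the ratios of Defb4 and Lyg1 that passed in WT mice at 60 min, and its part in them was not tested. As in any bulk tissue, fewer cells of a type and less RNA per cell cannot be told apart.

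Surface epithelia are protected by proteins that kill microbes and by proteins that limit the damage of the response. Beta-defensins are small cationic peptides that disrupt microbial membranes, and some are made continuously by keratinocytes while others rise with infection, injury or cytokines. Lysozymes cut the peptidoglycan of bacterial walls, Acod1 makes the antimicrobial metabolite itaconate in activated myeloid cells, and Slpi inhibits neutrophil serine proteases besides having antimicrobial activity of its own.

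A gene was counted as up-regulated where the mean ratio was at least 2.0-fold, or down-regulated where it was at most 0.5-fold. It also needed the same direction and a p-value below 0.01 from the scanner software on both arrays. In WT mice at 30 min, 0 of the 8 genes were up-regulated and 1 was down-regulated, where these shares over all probes were 0.254% and 0.0964%. For PAC1R KO mice at that time, 3 genes were counted as up and 0 as down, beside 0.601% and 0.107% of all probes. For WT mice at 60 min, 2 were counted as up and 0 as down, beside 0.583% and 0.109%. For PAC1R KO mice at 60 min, 3 were counted as up and 1 as down, beside 0.142% and 0.15%. Since these ratios chose the genes, nothing is read from the counts. The median fold change of the 8 genes at 30 min was 0.724 for WT mice and 1.93 for PAC1R KO mice. At 60 min it was 1.82 and 1.39. The median over all probes was 1 in each comparison.

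**Figure D1:**
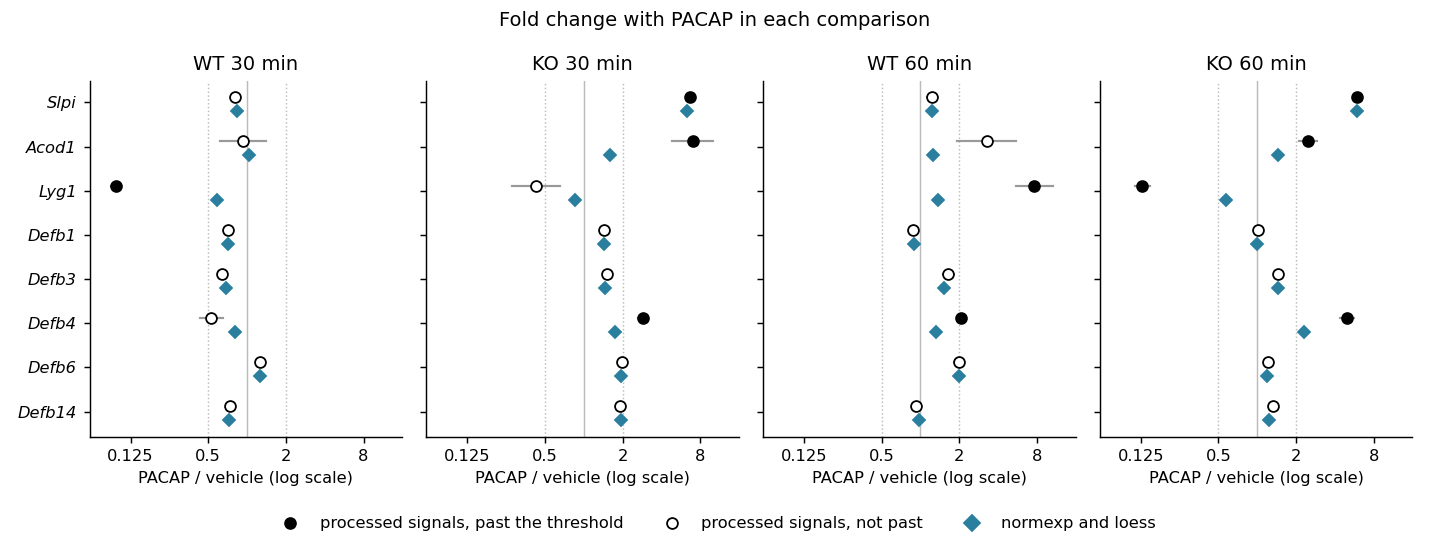
Fold change of the 8 genes with PACAP over vehicle on a log scale, in each of 4 comparisons. Circles are the mean of 2 dye-swapped arrays from the processed signals (filled where up- or down-regulated) with a grey line between the arrays, diamonds are the same genes after normexp and loess, and dotted lines mark 0.5 and 2. Slpi lay at 6.70 and 5.96 in PAC1R KO mice by the processed signals and at 6.29 and 5.96 after normexp, whereas the diamonds of Acod1, Lyg1 and Defb4 lay nearer to 1 than their filled circles.

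Slpi, the secretory leukocyte peptidase inhibitor, was far higher in the PACAP samples of PAC1R KO mice than in any other sample. Its level, the log2 intensity after background correction and normalization between arrays, was 10.26 with vehicle and 10.00 with PACAP in WT mice at 30 min. At the same time, PAC1R KO mice had 10.00 with vehicle and 12.65 with PACAP. At 60 min it was 10.45 and 10.76 in WT mice and 10.23 and 12.80 in PAC1R KO mice. The 2 PACAP samples of PAC1R KO mice thus lay above all 6 other samples, which ranged from 10.00 to 10.76. The fold change from the processed signals was 6.70 (6.82 and 6.57 on the 2 arrays) at 30 min and 5.96 (6.10 and 5.83) at 60 min in PAC1R KO mice. In WT mice it was 0.802 at 30 min and 1.23 at 60 min, and neither passed the thresholds. The Slpi probe was above background on both arrays in every sample, and its fold change in PAC1R KO mice lay between 5.83 and 6.82 on single arrays and after normexp and loess.

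The Slpi probe matches chr2:164179849-164179908 of mm9 on the minus strand, by the coordinates in the array files. The promoter of Slpi is shown because the ratio of this gene was past 5 in both comparisons of PAC1R KO mice, with the processed signals and after normexp and loess alike. It is the 250 bases before the RefSeq start, chr2:164356508-164356757 of GRCm38.p6 on the minus strand, written 5′ to 3′ with matches to the C/EBP motif TTNNGNAA on either strand in capitals.
Slpi promoter: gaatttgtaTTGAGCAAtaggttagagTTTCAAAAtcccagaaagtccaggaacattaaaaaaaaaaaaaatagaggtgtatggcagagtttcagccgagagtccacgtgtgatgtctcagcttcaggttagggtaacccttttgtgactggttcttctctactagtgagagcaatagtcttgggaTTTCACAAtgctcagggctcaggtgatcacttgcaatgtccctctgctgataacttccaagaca
The 3 matches are letters only, and 36.9% of 27025 promoters of this length held at least 1. The core TGACG of the cAMP response element, TGANTCA of AP-1, TTCNNNGAA of STAT, the TATA box TATAAA and the NF-kB motif had 0 matches in this window.

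Slpi belongs to the WAP four-disulfide core family, most members of which are protease inhibitors encoded near it. Of the 22 other family members on the array, 0 were up-regulated and 0 down-regulated in each of the 4 comparisons, and their median fold change lay between 0.901 and 1.10. Among 24 genes for the proteases that Slpi inhibits and for other serine protease inhibitors, 0 passed in either direction in any comparison, with medians between 0.969 and 1.10.

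Acod1 encodes the enzyme that turns cis-aconitate into itaconate, and its probe at chr14:103455171-103455231 of mm9 was printed on 10 spots. Its level in WT mice was 6.10 with vehicle and 6.16 with PACAP at 30 min, and 6.19 and 6.52 at 60 min. For PAC1R KO mice it was 6.10 and 6.77 at 30 min and 6.43 and 6.97 at 60 min. The 2 PACAP samples of PAC1R KO mice were the highest of the 8, as for Slpi, followed by the PACAP sample of WT mice at 60 min. Vehicle samples were close to the background, with the probe above it on 1, 1 and 1 of 2 arrays in WT mice at 30 min, PAC1R KO mice at 30 min and WT mice at 60 min. The fold change from the processed signals was 6.97 in PAC1R KO mice at 30 min, and the arrays gave 10.0 and 4.86. It was 2.48 in PAC1R KO mice at 60 min and 0.928 in WT mice at 30 min. In WT mice at 60 min it was 3.25, which did not pass because the p-value on the second array was 0.0357, and the arrays gave 5.49 and 1.93. After normexp and loess the ratios were smaller, 1.59 at 30 min and 1.45 at 60 min in PAC1R KO mice and 1.26 in WT mice at 60 min. The part of the normexp offset in this was not tested.

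The promoter of Acod1, chr14:103046762-103047011 of GRCm38.p6 on the plus strand, is shown beside that of Slpi because the levels of both genes were highest in the same 2 samples. Its single motif match, TATAAA, is in capitals and begins 28 bases before the start.
Acod1 promoter: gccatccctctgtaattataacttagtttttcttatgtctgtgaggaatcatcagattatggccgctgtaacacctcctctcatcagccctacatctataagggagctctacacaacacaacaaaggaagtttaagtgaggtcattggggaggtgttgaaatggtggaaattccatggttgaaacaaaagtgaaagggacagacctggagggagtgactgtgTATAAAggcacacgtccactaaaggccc
This motif was held by 13.0% of all promoters, and the other 5 motifs had 0 matches in the window. Of 31 other genes of itaconate handling and macrophage activation, 1 was up-regulated, Clec4e at 4.73-fold in PAC1R KO mice at 30 min. Clec4e encodes Mincle, a lectin receptor of myeloid cells. Its level was 6.37 with vehicle and 7.33 with PACAP, and after normexp and loess its ratio was 1.94, short of 2-fold. No other of the 31 passed in any comparison, and the medians lay between 0.920 and 1.04.

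Lyg1, a goose-type lysozyme, had ratios on both sides of 1 and levels near the background in every sample. Its probe lies at chr1:38003586-38003645 of mm9 on the minus strand. In WT mice the level was 6.87 with vehicle and 6.09 with PACAP at 30 min, and 6.01 and 6.46 at 60 min. The samples of PAC1R KO mice had 6.25 and 6.02 at 30 min and 6.80 and 5.99 at 60 min. The highest levels were those of the vehicle samples of WT mice at 30 min and PAC1R KO mice at 60 min, the only ones in which the probe was above background on both arrays. In WT mice at 30 min the PACAP sample was above background on neither array, and Lyg1 was at least 1.69-fold lower with PACAP. In WT mice at 60 min the vehicle sample was above background on neither array, and the PACAP sample was above it on 1 of 2 arrays, so that the bound of at least 1.31-fold higher with PACAP rests in part on an array that did not measure the probe above background. The processed signals, in which dim spots carry surrogate values, gave a fold change of 0.0962 and 7.63 in these comparisons. For PAC1R KO mice they gave 0.424 at 30 min (0.652 and 0.276 on the 2 arrays), not past the thresholds, and 0.129 at 60 min. After normexp and loess, the ratios that had passed were 0.582 and 1.37 in WT mice and 0.570 in PAC1R KO mice at 60 min.

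Of 10 other lysozyme family genes, Lyg2, the other goose-type lysozyme, passed. It was up-regulated 2.84-fold in PAC1R KO mice at 30 min and 3.10-fold in WT mice at 60 min. Its fold change was 1.73 in WT mice at 30 min and 0.751 in PAC1R KO mice at 60 min. After normexp and loess, the ratios that had passed were 1.39 and 2.21, so that only WT mice at 60 min exceeded 2-fold, and the vehicle sample of PAC1R KO mice at 30 min was above background on 1 of 2 arrays. The Lyg2 level in vehicle samples was 6.81, 6.39 and 7.21 in WT mice at 30 min, PAC1R KO mice at 30 min and WT mice at 60 min, but 8.89 in PAC1R KO mice at 60 min, the vehicle sample that was also highest in hair shaft and inner root sheath genes.

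**Figure D2:**
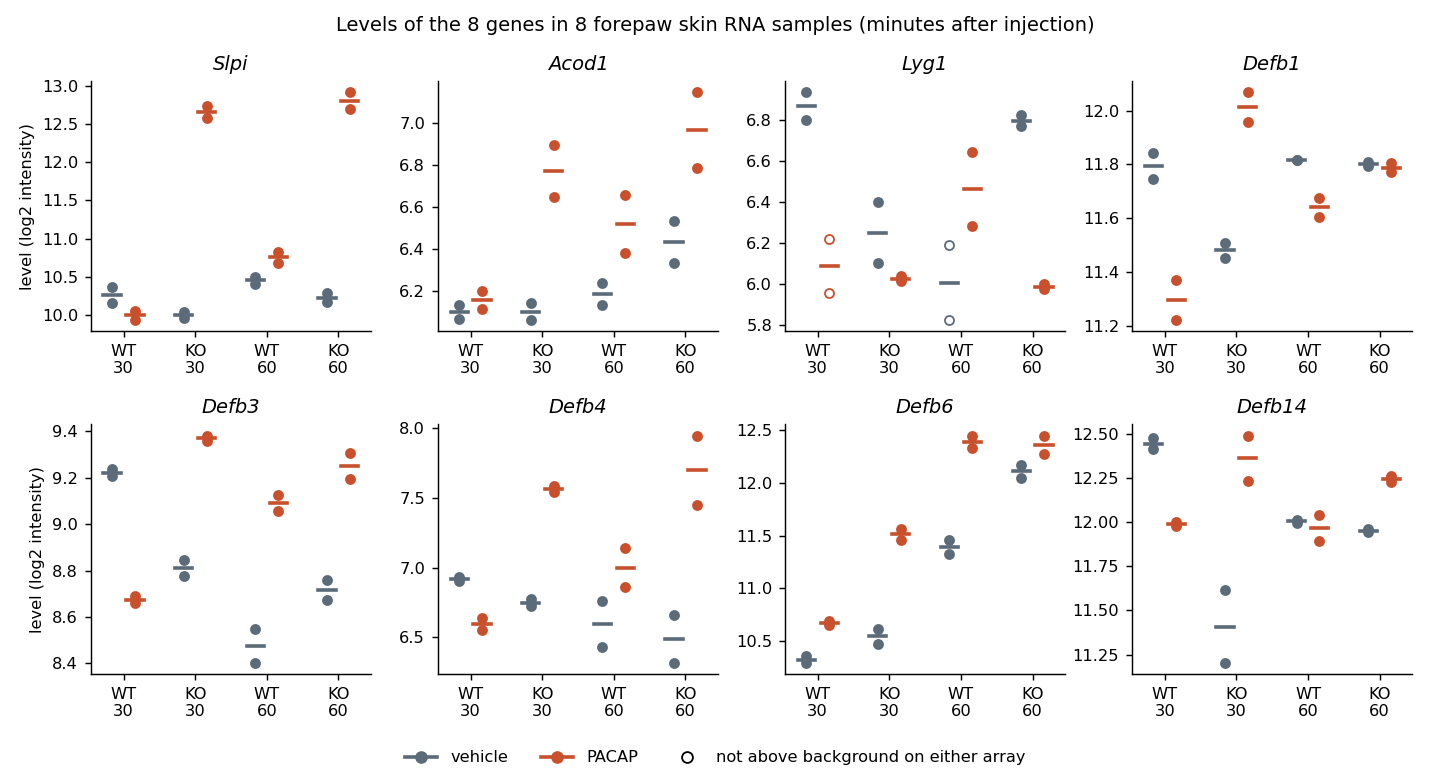
Level (log2 intensity) of the 8 genes in 8 RNA samples of both genotypes and times, with vehicle in grey and PACAP in orange. Dots are the 2 arrays of a sample and bars their mean, and open dots mark samples not above background on either array. Slpi, Acod1 and Defb4 had their 2 highest levels in the PACAP samples of PAC1R KO mice, and Lyg1 had its 2 highest in vehicle samples.

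Of the 5 beta-defensins, 4 lie together on mouse chromosome 8. The probes of Defb14, Defb4, Defb6 and Defb3 start at chr8:19195152-19195211, chr8:19201282-19201341, chr8:19228090-19228149 and chr8:19295274-19295333 of mm9, all on the plus strand and within 100.122 kb. The probe of Defb1 lies apart from them at chr8:22905041-22905100. Near-identical family members can share signal on an array, so the probes were aligned with each other. Among the 5 defensin probes only those of Defb4 and Defb6 were alike beyond 12 aligned bases, matching at 31 of 35. A 30-base window of each is shown with the 4 differing bases in capitals, because this pair had the longest alignment. Probes were not aligned with transcripts, so shared signal between other defensins cannot be judged from these alignments.
Defb4 probe: atagataaaaAgacGaagaaccagcaaGAt
Defb6 probe: atagataaaaGgacCaagaaccagcaaTGt
Over the 8 samples, which share arrays in pairs, the levels of Defb4 and Defb6 had a Pearson r of 0.37. Whether the probes share signal was not tested.

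Defb4 was the one of the 5 beta-defensins that passed in 3 comparisons, and like Slpi and Acod1 it was highest in the PACAP samples of PAC1R KO mice. Defb4 is known as an inducible defensin of inflamed epithelia. Its level was 6.92 with vehicle and 6.60 with PACAP in WT mice at 30 min, and 6.75 and 7.56 in PAC1R KO mice. At 60 min it was 6.60 and 7.00 in WT mice, and 6.49 and 7.70 in PAC1R KO mice. Vehicle levels thus ranged from 6.49 to 6.92, and 3 of the 4 PACAP levels lay above all of them. The fold change was 2.87 at 30 min and 4.96 at 60 min in PAC1R KO mice, 2.07 in WT mice at 60 min, just inside the threshold, and 0.528 in WT mice at 30 min, where it did not pass. After normexp and loess, the 3 ratios that had passed were 1.76, 2.31 and 1.32, so that only PAC1R KO mice at 60 min exceeded 2-fold.

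Defb14, a broad-spectrum defensin of keratinocytes, and Defb3, an inducible epithelial defensin, had ratios at 30 min that were below 1 for WT mice and above 1 for PAC1R KO mice, and neither passed in any comparison. The level of Defb14 was 12.44 with vehicle and 11.99 with PACAP in WT mice at 30 min, and 11.41 and 12.36 in PAC1R KO mice. At 60 min it was 12.00 and 11.97 in WT mice, and 11.95 and 12.24 in PAC1R KO mice. One vehicle sample, that of PAC1R KO mice at 30 min, was the lowest of the 8 and another, of WT mice at 30 min, the highest. At 30 min the Defb14 fold change was 0.733 for WT mice and 1.90 for PAC1R KO mice, the second just outside the threshold, and 0.923 and 1.33 at 60 min. The level of Defb3 was 9.22 and 8.68 in WT mice and 8.81 and 9.37 in PAC1R KO mice at 30 min, and 8.48 and 9.09 in WT mice and 8.72 and 9.25 in PAC1R KO mice at 60 min. Its highest level was in the PACAP sample of PAC1R KO mice at 30 min and its lowest in the vehicle sample of WT mice at 60 min. The Defb3 fold change was 0.635, 1.52, 1.65 and 1.44 in WT mice at 30 min, PAC1R KO mice at 30 min, WT mice at 60 min and PAC1R KO mice at 60 min.

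Defb1, which epithelia make continuously, varied least. Its level was 11.79 with vehicle and 11.30 with PACAP in WT mice at 30 min, 11.48 and 12.01 in PAC1R KO mice at 30 min, 11.82 and 11.64 in WT mice at 60 min, and 11.80 and 11.79 in PAC1R KO mice at 60 min. All 8 levels lay within 0.72 on the log2 scale, the smallest range of the 5 defensins. The Defb1 fold change lay between 0.715 and 1.43, and none passed.

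Defb6, known from muscle and from the epithelia of the upper digestive tract, was higher at 60 min than at 30 min in both genotypes, with vehicle and with PACAP. Its level in WT mice was 10.33 with vehicle and 10.67 with PACAP at 30 min, and 11.39 and 12.39 at 60 min. In PAC1R KO mice it was 10.54 and 11.51 at 30 min, and 12.11 and 12.36 at 60 min. The 60 min level exceeded the 30 min level by 1.07 with vehicle and 1.72 with PACAP in WT mice, and by 1.57 and 0.84 in PAC1R KO mice. The fold change with PACAP was 1.26 in WT mice at 30 min and 1.21 in PAC1R KO mice at 60 min, and it was 1.97 in PAC1R KO mice at 30 min and 1.99 in WT mice at 60 min, both just outside the threshold.

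Marker lists are given beside Defb6 by their mean log2 level. For 16 skeletal muscle genes it was 11.98 and 12.55 at 30 and 60 min in the vehicle samples of WT mice, and 12.31 and 12.32 in those of PAC1R KO mice. With PACAP it was 12.63 and 12.54 in WT mice and 11.80 and 12.32 in PAC1R KO mice. For 10 sebaceous gland genes it was 8.58 and 8.94 with vehicle and 8.74 and 9.29 with PACAP in WT mice, and 8.46 and 9.14, and 8.71 and 9.31, in PAC1R KO mice. That of 18 hair shaft and inner root sheath genes was 8.71 and 8.57 in the vehicle samples of WT mice at 30 and 60 min and 8.20 and 10.42 in those of PAC1R KO mice. In the PACAP samples it was 9.10 and 10.04 in WT mice and 9.10 and 10.02 in PAC1R KO mice. Of the 18 genes, 3 were up-regulated with PACAP in WT mice and 11 in PAC1R KO mice at 30 min, and 14 and 0 at 60 min, of which 2, 8 and 13 stayed past 2-fold after normexp and loess. By mean level, the sebaceous gland genes, like Defb6, were higher at 60 min in 4 of 4 genotype and treatment pairs. The hair genes and the skeletal muscle genes were each higher in 3 of 4. The part of these lists in the Defb6 levels was not tested.

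Promoters are compared here because Defb3 and Defb6 lie in the same cluster, with the probes of Defb46 and Defb5 between theirs, and their levels followed each other little (r = 0.18 over 8 samples). The stretches that align within the 150 bases before each RefSeq start are chr8:19293211-19293345 for Defb3 and chr8:19225341-19225477 for Defb6 (GRCm38.p6, both on the plus strand), with differing or unpaired bases in capitals.
Defb3 promoter: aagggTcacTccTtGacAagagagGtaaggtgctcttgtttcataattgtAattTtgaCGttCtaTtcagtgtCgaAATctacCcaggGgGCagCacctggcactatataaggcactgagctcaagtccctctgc
Defb6 promoter: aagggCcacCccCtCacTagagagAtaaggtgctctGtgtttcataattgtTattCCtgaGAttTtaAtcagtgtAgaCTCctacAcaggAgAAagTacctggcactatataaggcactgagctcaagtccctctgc
They matched at 114 of 137 aligned columns (83.2%). Of the 10 pairs among the 5 genes with a promoter in the RefSeq table, no other pair of more than 42 columns exceeded 59.5%. The shorter alignments were those of Slpi with Defb6 (71.4% of 42 columns), Acod1 with Lyg1 (92.3% of 13) and Slpi with Lyg1 (83.3% of 12). In the 250 bases before the start, Defb3 held 2 and Defb6 held 3 C/EBP matches. The sequence TGACG, present in 17.9% of all promoters, occurred once in each, 95 bases before the start of Defb3 and 225 bases before that of Defb6, and the NF-kB motif, present in 7.01%, occurred once in Defb6 alone.

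The 38 other beta-defensin genes on the array included 2 that passed, Defb7 and Defb8, which lie on the far side of the same cluster. Defb8 was up-regulated 3.66-fold in WT mice and 4.76-fold in PAC1R KO mice at 30 min and 2.35-fold in WT mice at 60 min, whereas its fold change was 0.876 in PAC1R KO mice at 60 min. By the processed signals, Defb7 was up-regulated 3.98-fold, 4.37-fold and 2.69-fold in the same 3 comparisons and had a fold change of 0.846 in the fourth. After normexp and loess, the 3 ratios of Defb7 were 1.58, 1.93 and 1.44, none of them 2-fold, and those of Defb8 were 3.19, 4.07 and 2.14. In WT mice at 30 min the Defb7 probe was above background on 1 of 2 vehicle arrays. The vehicle level of Defb8 was 8.29, 8.22 and 8.69 in the first 3 comparisons and 12.18 in PAC1R KO mice at 60 min, where the PACAP level was 12.00. For Defb7 the vehicle level was 6.48, 6.49 and 6.62, and 9.10 in PAC1R KO mice at 60 min, where the PACAP level was 8.92. The PACAP levels in the other comparisons were 9.79 to 10.24 for Defb8 and 7.14 to 7.44 for Defb7. Both samples of PAC1R KO mice at 60 min stood above the rest for these genes, and Lyg2 was likewise highest there, with 8.89 and 8.56 against 6.39 to 8.36 elsewhere. The 36 others did not pass in any comparison, and the list median was 1 or 1.01. Among 26 alpha-defensin genes, 1 passed, the pseudogene Defa-ps12 at 2.20-fold in PAC1R KO mice at 30 min (1.43 after normexp and loess).

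**Figure D3:**
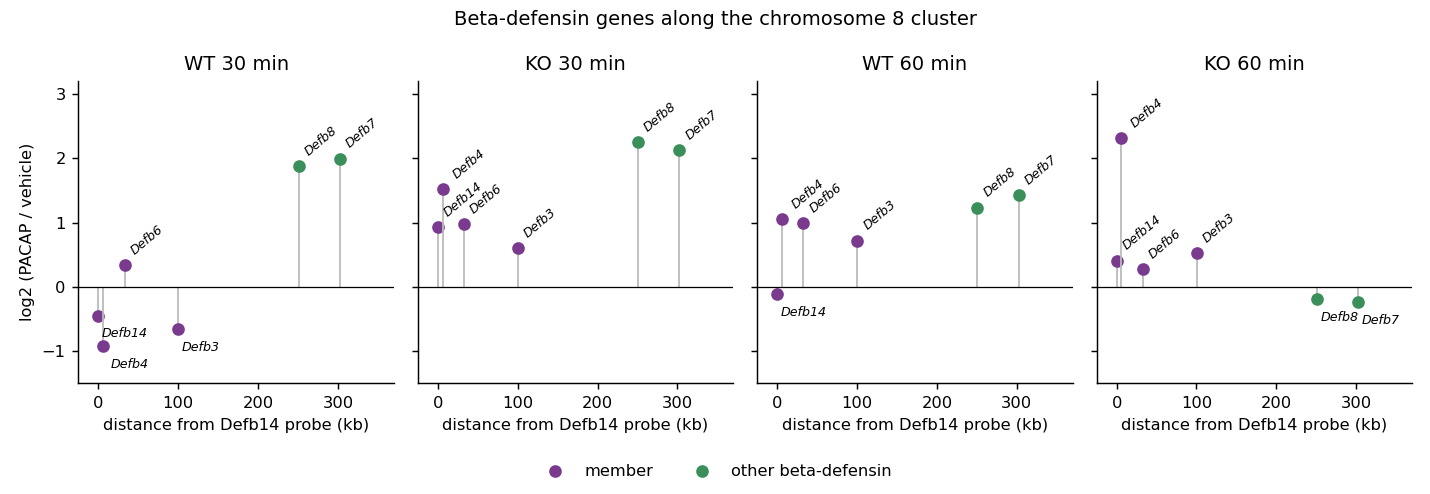
Log2 ratio of PACAP over vehicle for 4 of the 8 genes (purple) and for Defb8 and Defb7 (green), against the distance of each probe from the Defb14 probe in kb. Each point is the mean of 2 arrays, and Defb46 and Defb5, whose probes were near or below background, are not drawn. Defb8 and Defb7 lay above 0 except in PAC1R KO mice at 60 min, the comparison in which Defb4 was highest.

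Beyond these families, 39 genes for other secreted antimicrobial proteins were counted. In PAC1R KO mice at 30 min, 2 were up-regulated, Chil3 at 8.86-fold, a chitinase-like lectin of myeloid cells, and Lcn2 at 3.03-fold, which withholds iron from bacteria by binding siderophores. Chil3 was also up-regulated 2.44-fold in WT mice at 60 min, where its ratio was 1.85 after normexp and loess. Retnla, a resistin-like protein of alternatively activated macrophages and epithelia, was down-regulated to 0.191 in PAC1R KO mice at 60 min. No other gene of the list passed, and the list medians were between 1 and 1.09. Of 37 genes that sense microbes or induce such effectors, Il1b, which encodes the cytokine interleukin 1 beta, was up-regulated at 30 min, 2.10-fold in WT mice and 4.76-fold in PAC1R KO mice, and no other passed. After normexp and loess the ratios of Il1b were 1.75 and 3.67.

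Slpi is made by neutrophils, macrophages and epithelia, so the marker lists of these cells are given beside it. Of 20 neutrophil genes, 3 were up-regulated in PAC1R KO mice at 30 min and 2 at 60 min, and 0 in WT mice. These were S100a8 (4.13-fold and 4.56-fold) and S100a9 (4.01-fold and 3.57-fold), which injured keratinocytes also make, and Retnlg (2.91-fold at 30 min). In PAC1R KO mice the summed intensity of the list was 17164 with vehicle and 38390 with PACAP at 30 min, and 19463 and 48611 at 60 min. Without S100a8 and S100a9, the remaining 18 genes summed to 10480 and 11607 at 30 min and to 9965 and 11149 at 60 min. The median fold change of the 20 genes was 1.19 and 1.09. The sum over all 20 ranged from 16619 to 30795 in WT mice. Between 18 and 20 of the 20 genes were above background on at least 1 array, and those not above it were Cxcr1 in both samples of WT mice at 30 min and Ngp in 1 of them. Of 15 monocyte and macrophage genes, 0 passed in any comparison.

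Of 12 genes of wound-activated keratinocytes, 0 were up-regulated in WT mice and 3 in PAC1R KO mice at 30 min, and 5 and 6 at 60 min. All 12 were above background in every sample, with a summed intensity of 80073 and 133101 (vehicle and PACAP) at 30 min and 62374 and 231437 at 60 min in PAC1R KO mice. In WT mice it was 108144 and 100602 at 30 min and 53573 and 89595 at 60 min. The largest ratios in PAC1R KO mice at 60 min were those of Sprr2e, a cornified envelope precursor (8.47-fold, and 4.68 after normexp and loess), and of the injury keratin Krt6b (7.68-fold). The median fold change of the wound list was 1.60 at 30 min and 1.88 at 60 min in PAC1R KO mice.

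Other lists had median fold changes below 1 in PAC1R KO mice at 30 min, the comparison in which Slpi and Acod1 had their highest ratios. Of 16 keratinocyte genes, 2 were down-regulated, the differentiation keratins Krt1 (0.455) and Krt10 (0.365), and the list had a median fold change of 0.648 and a summed intensity of 595649 with vehicle and 380780 with PACAP. Of 16 skeletal muscle genes, 1 was down-regulated, Eno3 (0.493, and 0.514 after normexp and loess), the muscle enolase, with a list median of 0.644 and sums of 263337 and 174617. Of 16 eccrine gland genes, 0 passed, with a median of 0.810 and sums of 45657 and 30916. At 60 min the medians of these 3 lists in PAC1R KO mice were 1.16, 0.981 and 0.921. The part of the marker lists in the levels of Slpi, Acod1 and Defb4 was not tested.

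**Figure D4:**
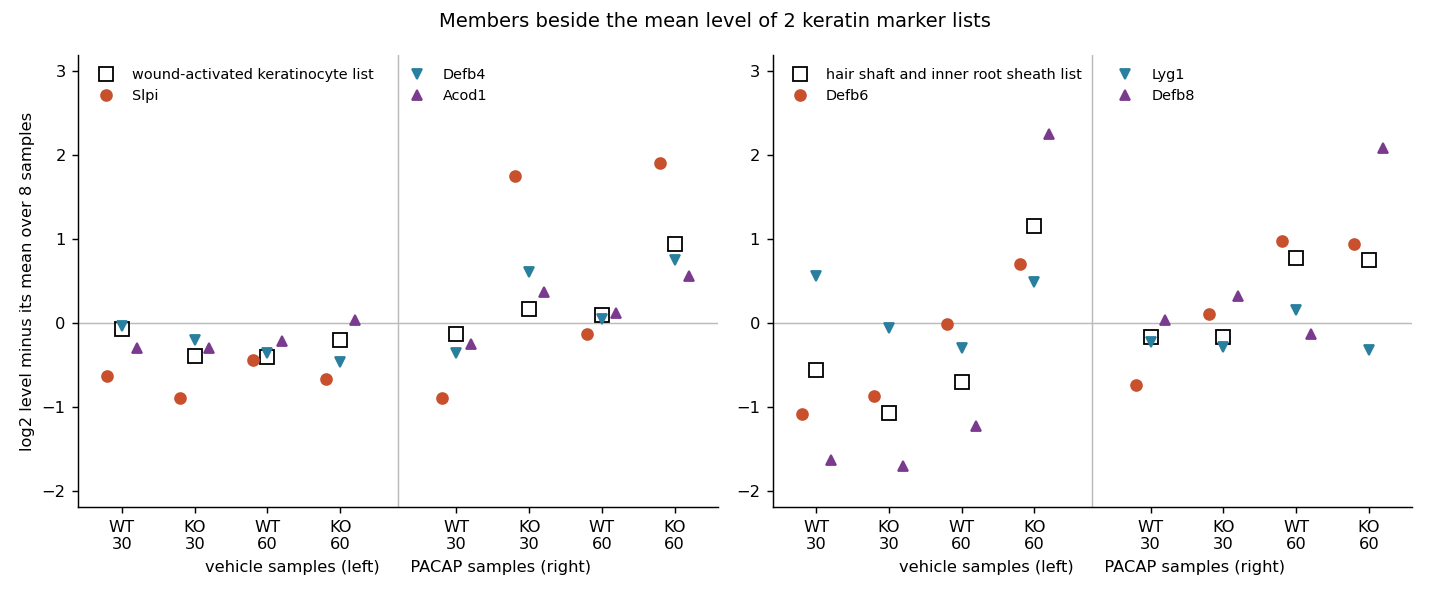
Log2 level minus its mean over the 8 samples, for the mean of 12 wound-activated keratinocyte genes beside Slpi, Defb4 and Acod1 (left) and for the mean of 18 hair shaft and inner root sheath genes beside Defb6, Lyg1 and Defb8 (right). Vehicle samples are to the left of the vertical line and PACAP samples to the right. The wound list, Slpi, Defb4 and Acod1 were highest in the PACAP sample of PAC1R KO mice at 60 min, and the hair list and Defb8 were highest in the vehicle sample of PAC1R KO mice at 60 min.

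The genes whose levels were most like those of the 4 genes with a ratio past the thresholds were listed by Pearson correlation over the 8 samples, among 30356 probes, as a description. The samples share arrays in pairs and a large part of the likeness is the contrast that chose the genes. For Slpi they were Sprr2g (r = 0.97), Csta3, Stfa2, Saa1 and Defb4 (each 0.95), that is, a cornified envelope precursor, 2 cysteine protease inhibitors of the stefin family, an acute phase protein and a defensin. For Acod1 they were Tmem45b (0.98), Saa1 and Saa2 (both 0.97), and Sprr2e and Csta3 (both 0.96). For Defb4 they were Lce3a (0.96), Slpi (0.95), and Cryba2, Sprr2g and Gm5478 (each 0.93). For Lyg1, whose own probe was too dim for the filter, they were Krt36 (0.97), 2310034C09Rik (0.96), Krtap13 (0.94), and 2310079G19Rik and Krt84 (both 0.91). Krt36, Krt84 and Krtap13 encode keratins and a keratin-associated protein of hair and nail. Among the 8 genes, the closest pair was Slpi and Defb4 (0.95), followed by Slpi and Acod1 (0.92), while Lyg1 had r between -0.49 and 0.09 with the others.

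Vehicle-treated skin was compared between the genotypes and between the times with limma on the 4 vehicle samples. These samples are also the denominators of the ratios that chose the genes. Over 37540 probes, 0 passed an adjusted p of 0.05 in either contrast, and 5372 (14.3%) and 8667 (23.1%) had an unadjusted p below 0.05 for PAC1R KO against WT mice and for 60 against 30 min. Of the 8 genes, 1 (Slpi) and 3 (Slpi, Defb4 and Defb6) did so. The vehicle level of Slpi was lower in PAC1R KO mice than in WT mice by -0.26 at 30 min and -0.22 at 60 min on the log2 scale, with a fitted difference of -0.24 (SE 0.05, limma adjusted p = 0.317). The difference of Defb14 was -0.55 (SE 0.29, limma adjusted p = 0.477), and it lay mostly at 30 min.

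Between 30 and 60 min, the vehicle level of Defb6 differed by 1.32 (SE 0.15, limma adjusted p = 0.149), that of Slpi by 0.21 (SE 0.05, limma adjusted p = 0.172) and that of Defb4 by -0.29 (SE 0.05, limma adjusted p = 0.150). None passed the adjusted threshold. With only the compared factor in the fit, the SE of Slpi was 0.14 between the times (limma adjusted p = 0.521). Between the genotypes it was 0.12 (limma adjusted p = 0.829). In a fit on the single array values, with the RNA sample as a random block and the replicate number, which marks the dye orientation, as a block, Defb6 passed in both contrasts. The limma adjusted p was then 0.00107 for 60 against 30 min and 0.0427 for PAC1R KO against WT mice (difference 0.47), where 20.9% and 9.87% of all probes passed. On the array values without the replicate number, an alternative added after seeing the data, 5 of the 8 genes (Slpi, Acod1, Defb3, Defb4 and Defb6) passed between the times and 2 (Slpi and Defb6) between the genotypes, beside 26.8% and 15.3% of all probes. The arrays of a pair carry the same RNA, so both of these fits rest in part on technical spread. Without the vehicle sample of PAC1R KO mice at 60 min, Defb6 differed by 0.96 between the times (limma adjusted p = 0.555) and by -0.32 between the genotypes (limma adjusted p = 0.999).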

How the data were processed

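Processed files of 8 two-colour Agilent mouse arrays were used, 2 dye-swapped arrays for each of 4 PACAP and vehicle pairs. Groups and dyes came from the labels. Scans had been extracted by the authors in Agilent Feature Extraction, given as 12.0.3.1 by the headers and as 11.0.1.1 by the submitters' processing notes. As deposited, log10 ratios set red over green after subtraction of background and LOWESS on every array. A deposited p-value of a spot comes from the software's error model and speaks of 1 array. The deposited intensity values are processed signals, with surrogates for dim spots, and mean and background signals. The flag columns of the deposited files gave outliers and spots above background. Per array, 78.6% to 94.5% of spots were above background in red and 54.0% to 65.3% in green, 0 were saturated and 198 to 342 outlier spots were left out. The number of arrays limits the precision.

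The sign of each log ratio was set so that PACAP stands over vehicle, and spots and arrays were averaged. Levels are log2 intensity values after normexp (offset 50), loess within and Aquantile between arrays, averaged over the dye swap, and were computed from the deposited mean and background signals. The test of vehicle levels used limma 3.58.1 with R 4.3.3 (genotype and time, Benjamini-Hochberg over all probes tested), in which 2 samples stand for each group. The p-values measure only what genotype and time leave unexplained among the 4 vehicle samples, with the spread moderated across probes. For a probe not above background on either array of a sample, the bound sets the brighter group's mean against a floor. On each array the floor is the lowest signal above background over all probes, or the probe's own signal where that is higher. Python 3.11.15, numpy 2.4.6, pandas 2.3.3 and matplotlib 3.10.9 were used for the rest. The fit of the vehicle levels was tested on simulated data.

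Same-numbered arrays of different vehicle samples deviated together (correlations 0.19 to 0.87), and the numbers mark the dye orientation. The 8 genes and all gene lists were chosen with earlier results of these data known. Genes named are the 8, the 5 most like each of Slpi, Acod1, Lyg1 and Defb4 over 8 samples, and list genes past the thresholds (where over 5 passed, the largest). Gene names and mm9 probe positions are those of the files. Promoters are RefSeq's (GRCm38.p6), found for 5 of the 8 genes, and those of Defb1, Defb4 and Defb14 were not analysed here. Alternatives were normexp ratios, no p filter, thresholds on each array, other filters on dim and outlier spots, median centring, the authors' series matrix ratios, single arrays, other normalizations of the vehicle levels single vehicle samples left out, and array values as units with the replicate number as a block and, chosen after seeing the data, without it.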

Additional observations from a re-analysis of the deposited data

Results flagged for a closer look

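In 11 cases both arrays of one comparison lay on one side of 1 and both arrays of another lay on the opposite side. Each comparison is 1 pair of RNA samples, the ratios had chosen the genes, and the differences were not tested.

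Between WT mice and PAC1R KO mice at 30 min, the fold change was 0.802 and 6.70 for Slpi and 0.528 and 2.87 for Defb4. It was 0.715 and 1.43 for Defb1, 0.635 and 1.52 for Defb3, and 0.733 and 1.90 for Defb14. All 5 genes had the lower ratio in WT mice, and each of them had a lower vehicle level and a higher PACAP level in PAC1R KO mice than in WT mice at 30 min. The vehicle differences on the log2 scale ran from -0.17 for Defb4 to -1.04 for Defb14, and the PACAP differences from 0.37 for Defb14 to 2.66 for Slpi.

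At 60 min the genotypes lay on opposite sides for Defb14 (0.923 and 1.33) and for Lyg1, where the processed signals gave 7.63 in WT mice and 0.129 in PAC1R KO mice. Within WT mice, the 30 and 60 min ratios did so for Lyg1 (0.0962 and 7.63), Slpi (0.802 and 1.23), Defb3 (0.635 and 1.65) and Defb4 (0.528 and 2.07). The values of Lyg1 in WT mice come from processed signals, in which dim spots carry surrogates. Its levels bear only that it was at least 1.69-fold lower with PACAP at 30 min. At 60 min the bound was 1.31-fold higher, with the PACAP sample above background on 1 of 2 arrays. The Lyg1 probe was above background on at most 2 of the 4 arrays and channels of any comparison except PAC1R KO mice at 60 min, where it was on 3.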

How the results depend on the processing

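Of 80 counts of the 8 genes under the alternatives, 73 stayed within 1.5 times the count in the report. With normexp and loess ratios, 0 genes were down-regulated in WT mice at 30 min, 1 (Slpi) was up-regulated in PAC1R KO mice at 30 min, 0 were up-regulated in WT mice at 60 min and 0 were down-regulated in PAC1R KO mice at 60 min. Without the p filter, 1 (Lyg1) was down-regulated in PAC1R KO mice at 30 min. On probes above background on both arrays, 1 (Defb4) was up-regulated in WT mice at 60 min. From single arrays, 1 to 2 genes were down-regulated in WT mice at 30 min, the second being Defb4 without replicate 1. The fold changes themselves were altered by normexp and loess, by taking single arrays and, in 2 cases, by keeping outlier spots, and by none of the other alternatives. Of the 10 that passed, 0 crossed 1. Among the others, Acod1 in WT mice at 30 min (0.928) was 1.04 with normexp and loess and 1.41 without replicate 2, and Defb1 in PAC1R KO mice at 60 min (1.01) was 0.990 and 0.995. With normexp and loess, 16 of 32 moved by more than the spread between arrays, where Acod1 in PAC1R KO mice at 30 min was 1.59 and Lyg1 in WT mice at 60 min was 1.37. The part of the normexp offset in this was not tested. With an offset of 16 in place of 50, the vehicle difference between the times was 0.37 (0.21 with 50) for Acod1, -0.33 (-0.16) for Lyg1 and -0.44 (-0.29) for Defb4. For Slpi it was 0.22 (0.21) and for Defb6 1.34 (1.32). The size of change is uncertain for Lyg1, Acod1 and Defb4, and for Lyg2, Defb7 and Clec4e among the genes set beside them. Defb4 and Clec4e were above background on 2 of 2 vehicle and 2 of 2 PACAP arrays in each comparison where they passed. Lyg1, Acod1, Lyg2 and Defb7 fell short of that in at least 1 such comparison.

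In the fit on array values with the replicate number as a block, 3706 probes passed for PAC1R KO against WT mice in vehicle skin and 7841 for 60 against 30 min, against 0 on the sample means. On array values without the block, added after seeing the data, 5750 and 10055 passed, so the calls came with the array values as units and were fewer with the block. Of the 8 genes, Defb6 passed in both contrasts with the block. Of 192 vehicle differences of single genes, 14 changed sign, and none of these passed the adjusted threshold. For Defb14 between the times the value was -0.010 with processed signals and quantile normalization, and it ranged from -0.47 to 0.57 when a sample or array was left out. For Lyg1 these ranges were -0.55 to 0.24 between the times and -0.34 to 0.52 between the genotypes. Between the genotypes they were -0.32 to 1.25 for Defb6, -0.30 to 0.023 for Defb4, -0.46 to 0.29 for Defb3 and -0.041 to 0.29 for Acod1. The sign turned for Defb6 (-0.068), Defb4 and Defb3 without the vehicle sample of WT mice at 30 min, and for Defb6 and Acod1 without that of PAC1R KO mice at 60 min. Where 1 sample stood alone, it was assumed to vary like the others.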
